A study of Mus musculus with 8 samples.

Results

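Long noncoding RNAs were compared between ICAM1high and ICAM1low neutrophils sorted from mouse mammary tumours. ICAM1 (CD54) is a surface protein through which cells adhere to integrins of leukocytes. Balb/c mice carried tumours of the mouse mammary line 2208L in their mammary fat pads; the tumours had no treatment and were dissociated once they measured 1 cm across. Flow cytometry then gave the 2 fractions, and each fraction had 4 libraries described as biological replicates, 8 libraries in all. The genotype, age and sex of the mice, the gate that defined neutrophils and any pooling of tumours are not stated in these sources. Whether replicates were separate mice is not stated either, so p-values measure only how far these samples spread.

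Members were the rows of the count table whose biotype was lincRNA, antisense, processed transcript, sense intronic or bidirectional promoter lncRNA, and that held at least 100 counts in 4 or more of the 8 libraries. This left 164 of the 9677 rows of the lncRNA biotypes, of which 3853 had at least 1 count, and of 54532 rows in the whole table. The members comprised 70 lincRNAs, 45 processed transcripts, 37 antisense transcripts, 8 sense intronic transcripts and 4 bidirectional promoter transcripts. The members were thus selected on their raw counts. Just inside the threshold lay Fam120aos, with a fourth-highest count of 100, Gm12867 with 100 and Ptpmt1 with 101, and just outside it lay Gm14963 with 99, Gm17201 with 98 and 2010016I18Rik with 97. Both fractions supplied libraries over the threshold for 146 members, 13 reached it in ICAM1high libraries alone and 5 in ICAM1low libraries alone. By the rule, the raw counts of these last groups could not overlap between the fractions, so their members are described with no p-value. They stay in the counts over all members.

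The libraries held 10.3 to 22.8 M counts. Levels are given as CPM, counts scaled to a common library size, with library sizes corrected by TMM, a method that centres most genes on no change. Each log2 fold change divides ICAM1high by ICAM1low and is given with its standard error, from a quasi-likelihood fit of edgeR to all 14051 genes that passed its expression filter; all 164 members passed. A gene is called higher or lower where the p-value adjusted over all of those genes is under 0.05. Without TMM, on library totals alone, the median log2 fold change of all genes lay 0.68 higher, so every change here is relative to the TMM scale. On library totals 6818 of the 14051 genes were called higher and 839 lower.

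Marker genes of several cell types moved with the fractions. Of 20 macrophage and monocyte marker genes, 19 were higher and 0 lower in ICAM1high neutrophils, with a summed level of 11000 to 17700 CPM in the ICAM1high libraries and 1080 to 1480 CPM in the ICAM1low libraries. All 18 neutrophil marker genes were lower in ICAM1high neutrophils, at 12700 to 16600 CPM summed, against 54700 to 97000 CPM in ICAM1low neutrophils; both fractions thus carried neutrophil transcripts. Mammary epithelial markers summed to 112 to 165 CPM in ICAM1high libraries and 261 to 460 CPM in ICAM1low libraries. The part these marker levels have in the lncRNA values was not tested, and in bulk RNA fewer cells of a type and less RNA per cell cannot be told apart.

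Long noncoding RNAs are transcripts that are not thought to be read into long proteins. Some, such as Xist, Neat1 and Malat1, act or gather in the nucleus, where they coat chromatin or scaffold nuclear bodies. Others are hosts, cut up or spliced to release microRNAs or the small nucleolar RNAs (snoRNAs) that guide chemical changes on ribosomal RNA. A further class lies beside or opposite a protein-coding gene, and several lncRNAs of myeloid cells are induced by bacterial products.

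Of the members, 7 enclose microRNA genes on their own strand, and 5 of them were called lower in ICAM1high neutrophils; 43.9% of all members and 24.3% of the genes at the same count threshold were called lower. The mature microRNAs of 4 of those 5 hosts are shown because they tell which small RNAs these transcripts can release; the capitals mark the seed, bases 2 to 8, which sets target choice. Sequences and positions are from RefSeq, build GRCm38.p6.
mmu-miR-142a-3p: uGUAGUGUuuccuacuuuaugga
mmu-miR-142a-5p: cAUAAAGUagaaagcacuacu
mmu-miR-22-3p: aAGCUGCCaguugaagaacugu
mmu-miR-223-3p: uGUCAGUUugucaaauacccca
mmu-miR-16-5p: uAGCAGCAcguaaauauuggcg
No 2 of these 5 share a seed. The miR-142 pair lies at chr11:87756867-87756925 on the plus strand, inside Mir142hg. miR-22-3p lies at chr11:75463772-75463793 on the plus strand, inside Mir22hg. miR-223-3p lies at chrX:96242884-96242905 on the plus strand, inside F630028O10Rik, and miR-16-5p at chr14:61631936-61631957 on the minus strand, inside Dleu2. An mRNA library does not measure mature microRNAs, so the values that follow are those of the host transcripts.

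Mir142hg (chr11:87755577-87757270, plus strand), host of a microRNA found almost only in blood cells, had the highest level per length of all members in ICAM1low neutrophils, at 317 CPM per kb, and the sixth highest in ICAM1high neutrophils, at 89.4 CPM per kb. It had 34.5, 20.7, 21.5 and 19.5 CPM in ICAM1high replicates 1 to 4, against 63.8, 55.5, 65.2 and 157 CPM in ICAM1low replicates 1 to 4. The fractions did not overlap, and the log2 fold change was -1.82 ± 0.35 (SE, edgeR adjusted p = 0.00211). Its neighbour Tspoap1 had 3.8 ± 2.12 CPM in ICAM1high neutrophils and 3.35 ± 0.995 CPM in ICAM1low neutrophils (SD, n = 4 each), and was not called.

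Mir22hg (chr11:75461539-75466676, plus strand) fell by 1.81 ± 0.2 on the log2 scale in ICAM1high neutrophils (SE, edgeR adjusted p = 8.64e-05). Its libraries read 70.8, 46.7, 61.5 and 54.6 CPM in ICAM1high neutrophils, against 219, 162, 262 and 179 CPM in ICAM1low neutrophils, so every ICAM1high value lay below every ICAM1low value. Of its exon bases, 10.7% are shared with another gene on the same strand.

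F630028O10Rik (chrX:96239926-96243636, plus strand) encloses miR-223, a granulocyte microRNA that restrains neutrophil activation in mice. It had 83.5, 41.2, 55.9 and 83.4 CPM in ICAM1high libraries and 78.5, 95.8, 121 and 176 CPM in ICAM1low libraries. The fractions overlapped in 1 ICAM1low library, replicate 1, and the fold change was -0.84 ± 0.29 (SE, edgeR adjusted p = 0.0409). That call was lost on leaving out ICAM1high replicate 2 or 3 or ICAM1low replicate 2, 3 or 4, with adjusted p up to 0.105, and on library totals, at -0.14. Dleu2, host of miR-16, had 19.8 to 25.2 CPM in ICAM1high libraries and 27.8 to 46.6 CPM in ICAM1low libraries, a log2 fold change of -0.68 ± 0.19 (SE, edgeR adjusted p = 0.0147). On library totals the direction of Dleu2 turned, to 0.02, and without ICAM1high replicate 2 its adjusted p was 0.0521.

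Gm35853, which encloses miR-1941, was the fifth lower host, at -2.31 ± 0.28 (SE, edgeR adjusted p = 0.000148); it runs opposite the keratin gene Krt80 and shares 7.43% of its exon bases with opposite-strand exons. The other two hosts were not called. A330023F24Rik, with miR-29b and miR-29c, had a log2 fold change of -0.09 ± 0.45, and Snhg20, with miR-6516, one of 0.18 ± 0.32. The microRNAs enclosed by A330023F24Rik share a seed, AGCACCA, in their 3p forms.
mmu-miR-29b-3p: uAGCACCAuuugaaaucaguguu
mmu-miR-29c-3p: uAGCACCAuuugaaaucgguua
The grouping by enclosed microRNA or snoRNA was made after values had been seen.

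**Figure D1:**
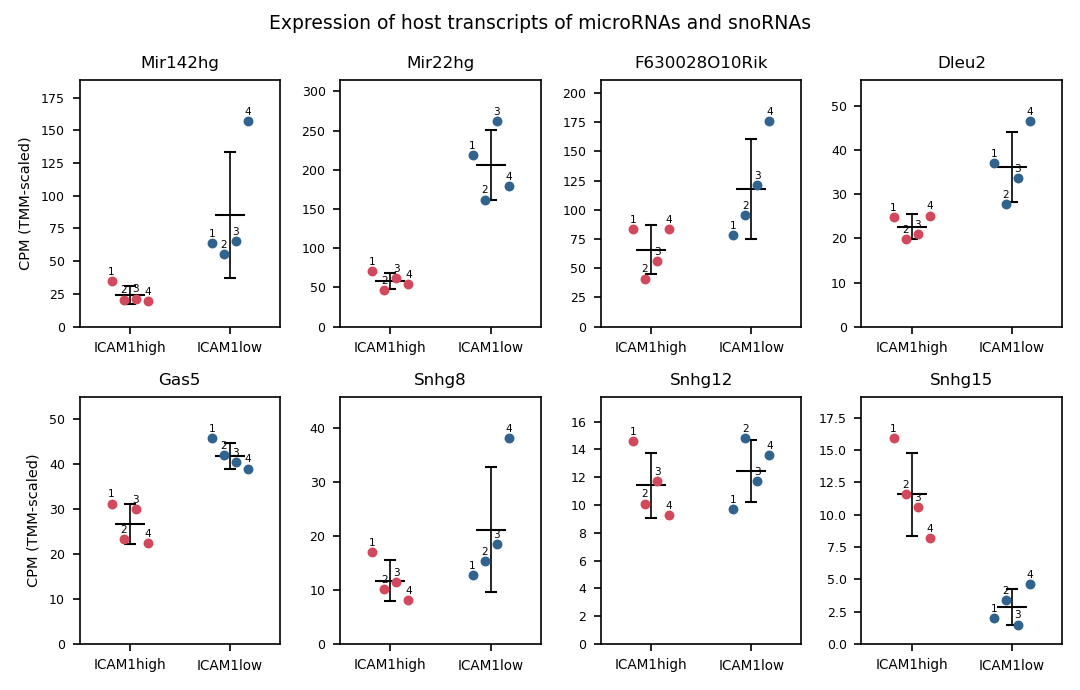
TMM-scaled CPM of 4 hosts of microRNAs (top row) and 4 hosts of snoRNAs (bottom row) in each library, ICAM1high left and ICAM1low right; points are libraries with their replicate number, the bar is the mean and the whiskers are 1 SD. Mir142hg, Mir22hg, Dleu2, Gas5 and Snhg15 do not overlap between the fractions, whereas F630028O10Rik, Snhg8 and Snhg12 do.

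Of the 11 members on the list of snoRNA hosts, 1 was higher, 1 was lower and 9 were not called, with a median log2 fold change of -0.17 against 0.08 over all genes tested. Gas5 (chr1:161034422-161038539, plus strand) encloses several snoRNA genes and is itself broken down when translation is active. It had 31.1, 23.3, 29.9 and 22.3 CPM in ICAM1high libraries, against 45.6, 41.8, 40.3 and 38.9 CPM in ICAM1low libraries. The fractions did not overlap, and the fold change was -0.64 ± 0.16 (SE, edgeR adjusted p = 0.00887), which turned to 0.03 on library totals.

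Snhg15, the higher one of the list, had 15.9, 11.6, 10.6 and 8.16 CPM in ICAM1high libraries, against 1.98, 3.36, 1.5 and 4.62 CPM in ICAM1low libraries, a log2 fold change of 2.01 ± 0.37 (SE). It is one of the members that reached 100 counts in ICAM1high libraries alone. Snhg8 had 11.7 ± 3.8 CPM in ICAM1high neutrophils and 21.2 ± 11.5 CPM in ICAM1low neutrophils (SD, n = 4 each), with 38.1 CPM in ICAM1low replicate 4; its edgeR adjusted p was 0.0759, 0.0356 without ICAM1high replicate 1 and 0.0403 without ICAM1low replicate 1. Snhg1, Snhg5, Snhg12, Snhg17, Snhg20, Zfas1, 1110038B12Rik and 2410006H16Rik were not called, with fold changes between -0.81 and 0.3. By position, 13 members enclose snoRNA genes, of which 2 were higher (Snhg15 and Cct6a) and 2 lower (Gas5 and Gm15832), against 25.0% of genes at the same count threshold higher and 24.3% lower. Cct6a, a chaperonin gene in RefSeq, read 0.93 ± 0.16 (SE, edgeR adjusted p = 0.00103). Of the 8 core proteins of snoRNA particles, 1, Fbl, was higher and 0 were lower, against 22.6% and 19.6% of all genes tested. On library totals all 8 were higher, against 6818 of all 14051 genes tested.

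Among the 5 members on the list of nuclear-body and chromatin lncRNAs, Neat1 was lower, Xist was higher, and Malat1, Tug1 and Firre were not called. Neat1 (chr19:5824708-5845478, minus strand) is the scaffold of paraspeckles, nuclear bodies that hold back certain RNAs and proteins. It had 431, 312, 462 and 476 CPM in ICAM1high libraries, against 2140, 831, 1050 and 1230 CPM in ICAM1low libraries. All ICAM1high values lay in a narrow band below the lowest ICAM1low value, and the log2 fold change was -1.64 ± 0.28 (SE, edgeR adjusted p = 0.00123). As a share of all lncRNA counts, Neat1 made up 5.16% to 7.1% in ICAM1high libraries and 9.78% to 16.3% in ICAM1low libraries. Of 15 paraspeckle proteins, 5 (Sfpq, Rbm14, Taf15, Hnrnpr and Smarca4) were higher, 1 (Dazap1) was lower and 9 were not called. Of all genes tested, 22.6% were higher and 19.6% lower. On library totals 10 of these proteins were higher and 0 lower, against 6818 and 839 of all 14051 genes tested.

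Malat1 (chr19:5795690-5802672, minus strand), the abundant RNA of nuclear speckles next to Neat1 on the chromosome, varied more within the fractions than between them. It had 321, 928, 869 and 1560 CPM in ICAM1high libraries and 1660, 911, 1360 and 517 CPM in ICAM1low libraries, a log2 fold change of -0.27 ± 0.45 (SE, edgeR adjusted p = 0.654). ICAM1high replicate 1 and ICAM1low replicate 4 held the lowest value of their fractions. Of 19 nuclear speckle proteins and splicing factors, 0 were higher and 6 were lower (Clk1, Clk4, Srsf3, Srsf5, Srsf11 and Tra2a). The shares of all genes tested were 22.6% higher and 19.6% lower. On library totals, however, 6 of the 19 were higher and 2 lower, against 6818 and 839 of all 14051 genes tested.

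Xist (chrX:103460366-103483254, minus strand), the RNA that silences the inactive X chromosome, had 173, 419, 501 and 610 CPM in ICAM1high libraries, against 220, 162, 164 and 88.4 CPM in ICAM1low libraries. ICAM1high replicate 1 lay inside the ICAM1low range, and replicates 2 to 4 lay above it. The log2 fold change was 1.42 ± 0.37 (SE, edgeR adjusted p = 0.0113), and 1.45 ± 0.18 (edgeR adjusted p = 0.000138) without ICAM1high replicate 1 and ICAM1low replicate 4. Of 15 Xist silencing and tethering factors, Ciz1, Ezh2 and Rbm15 were higher and Lbr was lower, against 22.6% and 19.6% of all genes tested. On library totals 9 of these factors were higher and 0 lower, against 6818 and 839 of all 14051 genes tested. Tug1 had 168 ± 31.1 CPM in ICAM1high neutrophils and 192 ± 65.5 CPM in ICAM1low neutrophils, and Firre, an X-linked RNA of nuclear organisation, had 17.6 ± 3 CPM in ICAM1high and 13.4 ± 2.96 CPM in ICAM1low neutrophils (SD, n = 4 each).

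**Figure D2:**
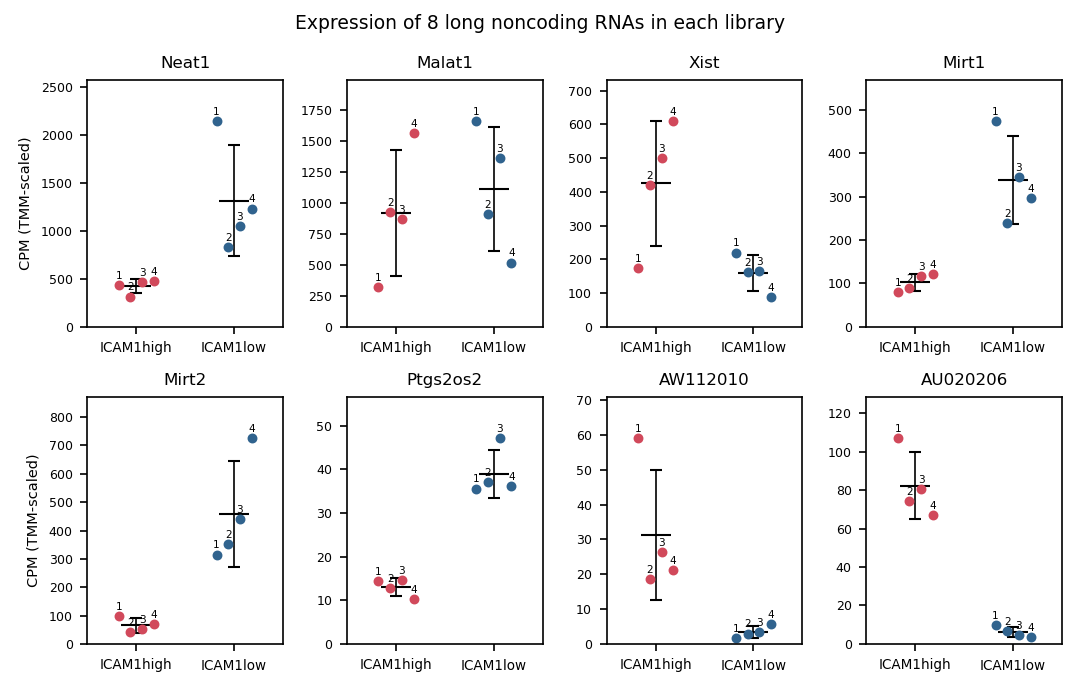
TMM-scaled CPM of 8 lncRNAs in each library, ICAM1high left and ICAM1low right, each panel with its own axis from 0; points are libraries with their replicate number, the bar is the mean and the whiskers are 1 SD. Neat1, Mirt1, Mirt2 and Ptgs2os2 lie lower in ICAM1high, AW112010 and AU020206 lie higher, and Malat1 and Xist overlap, with ICAM1high replicate 1 and ICAM1low replicate 4 lowest in their fractions.

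Of the 6 members on the list of lncRNAs with a described role in immune cells, 5 were called lower and 1, AW112010, called higher; AW112010 passed through ICAM1high alone. Of the genes at the same count threshold, 49.3% were called. Over the 11 genes of the list that were tested, 2 (AW112010 and Pvt1) were higher, 5 lower and 4 not called. Mirt2 (chr15:76266461-76269839, minus strand), described in mouse macrophages as an endotoxin-induced brake on TRAF6 signalling, had 98.9, 41, 51.5 and 69.2 CPM in ICAM1high libraries, against 315, 351, 441 and 725 CPM in ICAM1low libraries. The highest ICAM1high value lay far below the lowest ICAM1low value, and the log2 fold change was -2.81 ± 0.34 (SE, edgeR adjusted p = 0.000157). Mirt1, like Mirt2 a myocardial infarction associated transcript, is not on this list of immune roles. It was put on a fixed list of microRNA hosts, although it is no microRNA host. Mirt1 had 80.1, 89.4, 117 and 121 CPM in ICAM1high libraries and 474, 238, 344 and 297 CPM in ICAM1low libraries (log2 fold change -1.73 ± 0.23, SE, edgeR adjusted p = 0.000309). The opposite-strand 4833407H14Rik shares 67.5% of its exon bases with opposite-strand exons at the Mirt1 locus on chr19 and read -1.8 ± 0.22. Without the strand setting of the counting, those reads cannot be told apart.

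Ptgs2os2 (chr1:150159043-150164948, minus strand), known in mouse macrophages as lincRNA-Cox2, an inflammatory regulator near Ptgs2, had 14.4, 12.8, 14.6 and 10.2 CPM in ICAM1high libraries, against 35.6, 37, 47.1 and 36.2 CPM in ICAM1low libraries. The fractions did not overlap, and the fold change was -1.58 ± 0.18 (SE, edgeR adjusted p = 9.82e-05). Gm14005 (chr2:128178319-128502765, minus strand), known as Morrbid, prolongs the life of mouse neutrophils and other short-lived myeloid cells by holding down the pro-death gene Bcl2l11. It had 43.3, 19.5, 18.3 and 23.1 CPM in ICAM1high libraries and 39.1, 36.7, 55 and 73.6 CPM in ICAM1low libraries. ICAM1high replicate 1 lay within the ICAM1low range. Its fold change was -0.97 ± 0.32 (SE, edgeR adjusted p = 0.0304). That call was lost on leaving out any of 5 libraries, ICAM1high replicate 2, 3 or 4 or ICAM1low replicate 3 or 4, with adjusted p up to 0.0918 and fold changes of -0.74 to -0.93, and on library totals, at -0.28 (adjusted p = 0.401). Without ICAM1high replicate 1 and ICAM1low replicate 4 together it read -1.14 ± 0.18 (edgeR adjusted p = 0.000523).

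AW112010 (chr19:11047617-11050566, minus strand), which mouse macrophages translate into a small protein, went the other way. It had 59, 18.7, 26.4 and 21.2 CPM in ICAM1high libraries, against 1.61, 2.94, 3.28 and 5.74 CPM in ICAM1low libraries, a log2 fold change of 3.2 ± 0.46 (SE). Replicate 1 was the highest in ICAM1high and replicate 4 the highest in ICAM1low. It reached 100 counts in ICAM1high libraries alone.

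The promoters of AU020206, Mirt1 and Ptgs2os2 are shown. AU020206 had the largest rise among members measured in both fractions, and Mirt1 and Ptgs2os2 are members that fell. Each run holds 250 bases before and 50 after the annotated start (RefSeq, GRCm38.p6), all on the minus strand, at chr7:75782071-75782370, chr19:53464747-53465046 and chr1:150164899-150165198. Capitals mark matches to the letters searched on both strands, AP-1 (TGANTCA), C/EBP (TTNNGCAA), PU.1 (GAGGAAGT), NF-kB (GGGANNNNCC), E-box (CACGTG) and TATA box (TATAAA).
AU020206: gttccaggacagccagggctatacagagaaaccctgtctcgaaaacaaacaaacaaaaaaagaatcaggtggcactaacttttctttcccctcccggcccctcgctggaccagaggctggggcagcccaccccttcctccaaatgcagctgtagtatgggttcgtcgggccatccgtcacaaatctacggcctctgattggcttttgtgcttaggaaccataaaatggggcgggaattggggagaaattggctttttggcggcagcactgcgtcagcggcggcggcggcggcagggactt
Mirt1: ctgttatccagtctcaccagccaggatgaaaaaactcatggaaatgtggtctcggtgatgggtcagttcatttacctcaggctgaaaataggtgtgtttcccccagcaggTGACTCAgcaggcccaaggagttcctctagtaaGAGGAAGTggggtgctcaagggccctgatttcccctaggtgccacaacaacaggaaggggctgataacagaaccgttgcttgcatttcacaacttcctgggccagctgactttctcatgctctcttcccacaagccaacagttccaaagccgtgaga
Ptgs2os2: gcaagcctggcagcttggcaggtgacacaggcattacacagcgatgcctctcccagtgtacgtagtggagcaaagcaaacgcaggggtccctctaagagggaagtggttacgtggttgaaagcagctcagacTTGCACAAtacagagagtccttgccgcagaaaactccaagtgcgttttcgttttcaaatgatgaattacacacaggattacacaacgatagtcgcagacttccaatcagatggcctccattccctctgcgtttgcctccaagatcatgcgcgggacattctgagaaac
Mirt1 held an AP-1 match starting 140 bases and a PU.1 match starting 107 bases before its start, Ptgs2os2 a C/EBP match 118 bases before its start, and AU020206 held none of the 6. RefSeq gave a promoter for 109 members. PU.1 letters stood in 0 of 14 promoters of members called higher, 6 of 47 called lower (12.8%) and 4 of 48 not called (8.33%), against 3.2% of all 32851 promoters. AP-1 letters stood in 0 of 14, 6 of 47 (12.8%) and 5 of 48 (10.4%) of the same groups, against 7.81% of all promoters. C/EBP letters stood in 3 of 14 (21.4%), 9 of 47 (19.1%) and 3 of 48 (6.25%), against 10.8% of all. In the same order of higher, lower and not called, NF-kB letters stood in 28.6%, 19.1% and 29.2%, against 20.7% of all promoters. E-box letters stood in 14.3%, 10.6% and 10.4%, against 7.15%, and TATA box letters in 14.3%, 10.6% and 16.7%, against 13.6%. These shares are descriptions of letters, not of binding.

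Over all 164 members, 21 were called higher and 72 lower, which is 12.8% and 43.9%. Of all genes tested, 22.6% were called higher and 19.6% lower, 42.1% in all. Among the 8886 genes of any biotype at the same count threshold, 25.0% were higher and 24.3% lower, 49.3% in all, and among the 8496 protein-coding genes at that threshold 25.7% and 23.8%, 49.5% in all. Of the 869 lncRNA rows tested, members included, 7.25% were higher and 19.9% lower, 27.2% in all. The 146 members measured over the threshold in both fractions held 9 higher and 67 lower calls, with a median log2 fold change of -0.72. At 2-fold or more, 15 of the 164 members were higher and 56 lower, against 1262 and 1157 of the 8886 genes at the same count threshold. Of the 146 members over the threshold in both fractions, 4 were higher and 51 lower at 2-fold or more. The balance depended on scaling: on library totals 39 members were higher and 35 lower. Of the 8886 genes at the same count threshold, 4883 were higher and 702 lower on library totals. Relative to all genes the members' median barely moved, at -0.68 against 0.08 with TMM and 0.01 against 0.76 with library totals. The fractions did not overlap for 81 members (49.4%), 19 higher and 62 lower, against 41.5% of all genes tested.

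The lower calls came from every biotype, with 35 of 70 lincRNAs, 18 of 37 antisense transcripts, 13 of 45 processed transcripts, 4 of 8 sense intronic transcripts and 2 of 4 bidirectional promoter transcripts. Higher calls numbered 9 lincRNAs, 10 processed transcripts and 2 antisense transcripts. The lncRNA rows below the count threshold that passed the filter, 705 in all, held 42 higher and 101 lower calls. As a whole, lncRNA rows took a small share of each library's counts, taken without TMM, and no difference between the fractions was found. The share was 0.863 ± 0.132% in ICAM1high and 0.829 ± 0.171% in ICAM1low libraries (SD, n = 4 each, exact two-sided permutation p = 0.771, with 0.0286 the smallest possible). Members made up 78.1% to 79.7% of lncRNA counts in ICAM1high libraries and 82.5% to 84.3% in ICAM1low libraries.

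**Figure D3:**
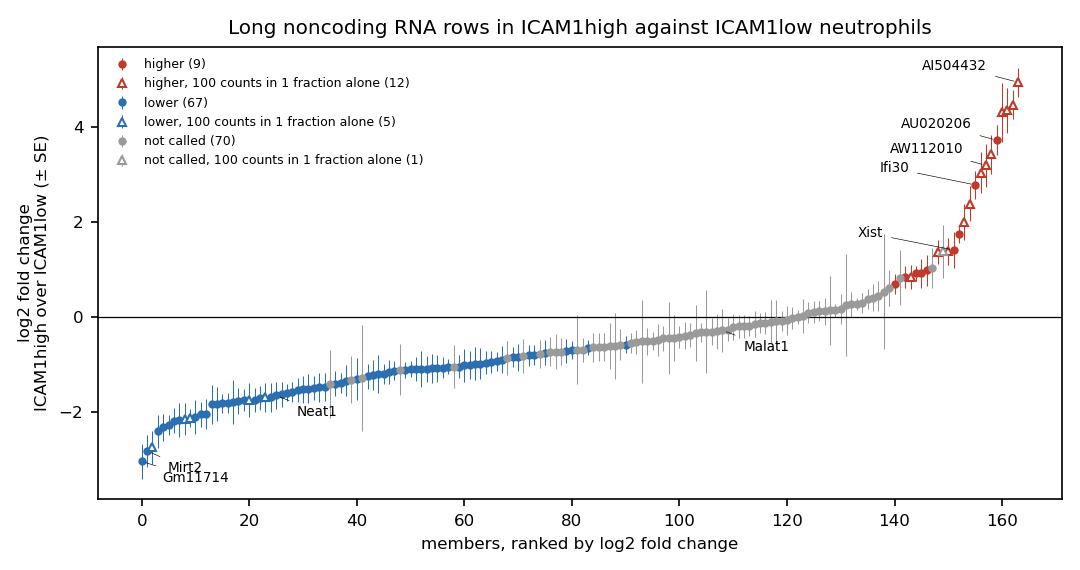
Log2 fold change of ICAM1high over ICAM1low with its standard error (vertical axis) for the 164 members, ranked from lowest to highest; red is called higher, blue called lower and grey not called, and open triangles are members that reached 100 counts in 1 fraction alone. The largest rises, to 4.95 for AI504432, are mostly open triangles, and the lowest value is -3.03 for Gm11714.

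AU020206 (chr7:75769038-75782099, minus strand) had the largest rise among members that passed through both fractions. It had 107, 74.5, 80.6 and 67.1 CPM in ICAM1high libraries, against 9.83, 6.85, 4.77 and 3.49 CPM in ICAM1low libraries, and a log2 fold change of 3.73 ± 0.32 (SE, edgeR adjusted p = 1.7e-05). The lowest ICAM1high library lay far above the highest ICAM1low library. Brip1os rose by 1.75 ± 0.19 (SE, edgeR adjusted p = 7.76e-05), with 28.4 ± 3.88 CPM in ICAM1high and 8.47 ± 1.4 CPM in ICAM1low neutrophils (SD, n = 4 each). In 12.3% of its exon bases it overlaps opposite-strand exons.

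Among members that passed through ICAM1high alone, AI504432 (chr3:107039504-107054347, plus strand) had 14.2, 17.4, 25.8 and 24 CPM in ICAM1high libraries, against 0.734, 0.734, 0.403 and 0.749 CPM in ICAM1low libraries, a log2 fold change of 4.95 ± 0.31 (SE). Gm13710 had 9.34 ± 1.14 CPM in ICAM1high and 0.417 ± 0.144 CPM in ICAM1low neutrophils (SD, n = 4 each), a fold change of 4.48 ± 0.31. Gm44751 and AI662270 read 3.05 ± 0.43 and 2.39 ± 0.37. No role is known with certainty for these transcripts.

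Gm11714 (chr11:107428276-107435686, plus strand) had the largest fall. It had 5.43, 3.62, 4.15 and 3.74 CPM in ICAM1high libraries, against 18.4, 28.2, 30.2 and 62.4 CPM in ICAM1low libraries (log2 fold change -3.03 ± 0.36, SE, edgeR adjusted p = 0.000144). It lies within Pitpnc1 on the other strand, shares no exon bases with it, and Pitpnc1 itself read -0.12 ± 0.21 and was not called. A530013C23Rik fell by 2.26 ± 0.21 (SE, edgeR adjusted p = 2.69e-05), with 5.97 to 9.99 CPM in ICAM1high libraries and 30.2 to 44.8 CPM in ICAM1low libraries. 4933432I03Rik and Gm17017 fell by 2.4 ± 0.35 and 2.15 ± 0.36 (edgeR adjusted p = 0.000489 and 0.00106). Gm31814, Gm16214 and Gm42829, which reached 100 counts in ICAM1low libraries alone, read -2.73 ± 0.35, -2.14 ± 0.34 and -2.12 ± 0.19.

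Per kb of gene length, the members with the highest mean levels in ICAM1high neutrophils were Ifi30 (137 CPM per kb), Malat1 (132), 1700058P15Rik (109), Gm26809 (96.3) and Gm15832 (94.3). In ICAM1low neutrophils they were Mir142hg (317 CPM per kb), Mirt2 (289), Gm15832 (278), 1700058P15Rik (218) and Malat1 (159). 1700058P15Rik, a short antisense transcript inside Vasp, a gene of actin assembly, had 38.1, 39.6, 49.3 and 52.5 CPM in ICAM1high libraries and 144, 82.4, 101 and 33.4 CPM in ICAM1low libraries. ICAM1low replicate 4 lay below every ICAM1high library. The log2 fold change was -1.01 ± 0.35 (SE, edgeR adjusted p = 0.0406), and leaving out any 1 library other than ICAM1low replicate 4 gave an adjusted p of 0.0565 to 0.115. Vasp itself read -1.07 ± 0.15 (edgeR adjusted p = 0.000338).

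The 3 members matched by name to the fixed list of cytoplasmic and conserved lncRNAs were not called on the TMM scale. 2900097C17Rik, known as Norad, a cytoplasmic RNA that binds Pumilio proteins, had 73.3, 67.7, 73.1 and 75 CPM in ICAM1high libraries and 58, 58.1, 66.4 and 54.9 CPM in ICAM1low libraries. The fractions did not overlap, yet the log2 fold change of 0.28 ± 0.13 was not called (SE, edgeR adjusted p = 0.103). 1700020I14Rik, also Oip5os1 or Cyrano, which directs the decay of miR-7, read 0.15 ± 0.13, and the imprinted Peg13 read 0.01 ± 0.15. On library totals all 3 were called higher, at 0.97, 0.84 and 0.69, near the shift of 0.68 of the median gene. 1810026B05Rik, or Chaserr, which in mice holds down its neighbour Chd2, was lower together with it. Chaserr had 69.3 ± 12.3 CPM in ICAM1high and 142 ± 15 CPM in ICAM1low neutrophils (log2 fold change -1.04 ± 0.16, SE, edgeR adjusted p = 0.000706), and Chd2 had 166 ± 51.9 CPM in ICAM1high and 302 ± 63.2 CPM in ICAM1low neutrophils (-0.86 ± 0.26, edgeR adjusted p = 0.0199; SD, n = 4 each). On library totals neither was called, Chaserr at -0.35 (edgeR adjusted p = 0.0634) and Chd2 at -0.17 (edgeR adjusted p = 0.621). Chaserr and Chd2 share 30.5% of the exon bases of Chaserr. The fixed list held Chaserr under that name, which the count table does not use, so the list counts missed it. It was added after its values were seen.

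For 14 members the matched RefSeq entry is protein-coding, for 111 it is a lncRNA, and 39 are of another class or have no entry. Strand was not part of the match. One of the 14, 4732487G21Rik, was matched to Gpatch2l, which lies on the opposite strand, so its label does not go against RefSeq. Ifi30, a processed transcript in the table, is the gene of the lysosomal thiol reductase GILT, which prepares antigens. It had 203, 124, 114 and 96.6 CPM in ICAM1high libraries, against 12.3, 22.3, 17.4 and 25.5 CPM in ICAM1low libraries (log2 fold change 2.79 ± 0.29, SE, edgeR adjusted p = 6.45e-05). Gm15832 lies on the strand of Rnf149, shares 38.6% of its exon bases with same-strand exons, and had 173 ± 50.3 CPM in ICAM1high and 510 ± 63.7 CPM in ICAM1low neutrophils (SD, n = 4 each; -1.56 ± 0.21, SE, edgeR adjusted p = 0.000338), while Rnf149 was not called. Trerf1 and Ptpmt1, which passed through ICAM1high alone, read 3.43 ± 0.42 and 1.39 ± 0.29. Of the 11 of these 14 that passed through both fractions, 3 were higher and 3 lower; of the 100 such members that are lncRNAs in RefSeq, 4 were higher and 46 lower, against 25.0% of genes at the same count threshold higher and 24.3% lower.

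A protein-coding gene overlapped 76 members or, for another 20, had its start within 5 kb. Member and neighbour had fold changes of the same sign in 68 of the 90 pairs in which both were measured, 75.6%. Among these pairs 71 members and 63 neighbours had negative fold changes. Unrelated pairs would therefore often share a sign too. That share was not computed, so the 75.6% is a description. Both were called in 30 pairs, 26 with both lower, 4 with both higher and 0 in opposite directions. Of all genes tested, 22.6% were higher and 19.6% lower. The members of those 4 higher pairs, AI504432, BE692007, G530011O06Rik and Ptprv, all passed through ICAM1high alone, so these pairs are a description. In the 81 measured pairs whose member passed through both fractions, 74.1% had the same sign, 23 had both lower and 0 both higher, and r was 0.60 and rho 0.62. Over the pairs the fold changes had a Pearson r of 0.81 and a Spearman rho of 0.69, given as a description, since all come from the same libraries. In the 41 measured pairs with no shared exon bases the same sign held in 75.6% and r was 0.72. With only replicates 3 and 4 of each fraction the share of same signs was 60.0%, and without ICAM1low replicate 1 it was 63.3%.

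Il1bos runs opposite Il1b, the gene of the inflammatory cytokine interleukin 1 beta, and shares 0.839% of its exon bases with opposite-strand exons. Il1bos had 81, 71.5, 103 and 83.2 CPM in ICAM1high libraries, against 252, 153, 280 and 117 CPM in ICAM1low libraries, a log2 fold change of -1.24 ± 0.27 (SE, edgeR adjusted p = 0.00438). Il1b read -1.56 ± 0.19 (edgeR adjusted p = 0.000143), at 7390 ± 1570 CPM in ICAM1high and 21700 ± 2510 CPM in ICAM1low neutrophils (SD, n = 4 each). Mirt2 shares 12% of its exon bases with its opposite-strand neighbour Spatc1, and both were lower, Spatc1 at -2.36 ± 0.18. Gm48780 and Arg2, which encodes an arginase, read -2.03 ± 0.31 and -1.81 ± 0.15, and Gm28809 and Cd9, which encodes a tetraspanin, -1.76 ± 0.27 and -1.6 ± 0.27.

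In the other direction, BE692007 lies opposite Ms4a6c, a gene of myeloid membrane proteins, and read 4.36 ± 0.47 beside 4.08 ± 0.46 for Ms4a6c; it shares 20.8% of its exon bases with opposite-strand exons. G530011O06Rik, opposite Mid1, read 4.32 ± 0.62 beside 2.86 ± 0.74 for Mid1, whose level in ICAM1high neutrophils, 59.3 ± 68.9 CPM, varied widely (8.19 ± 5 CPM in ICAM1low; SD, n = 4 each). AI504432 starts 3335 bases from the start of the potassium channel gene Kcna3 and shares no exon bases with it. Kcna3 read 4.4 ± 1.03, at 6.69 ± 4.88 CPM in ICAM1high and 0.322 ± 0.402 CPM in ICAM1low neutrophils (SD, n = 4 each). For 54 members, exons coincide with those of a gene whose counts reach 10% or more of the member's, for 46 of them on the opposite strand. No source states whether strand was used in counting, so the reads of such partners cannot be told apart.

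**Figure D4:**
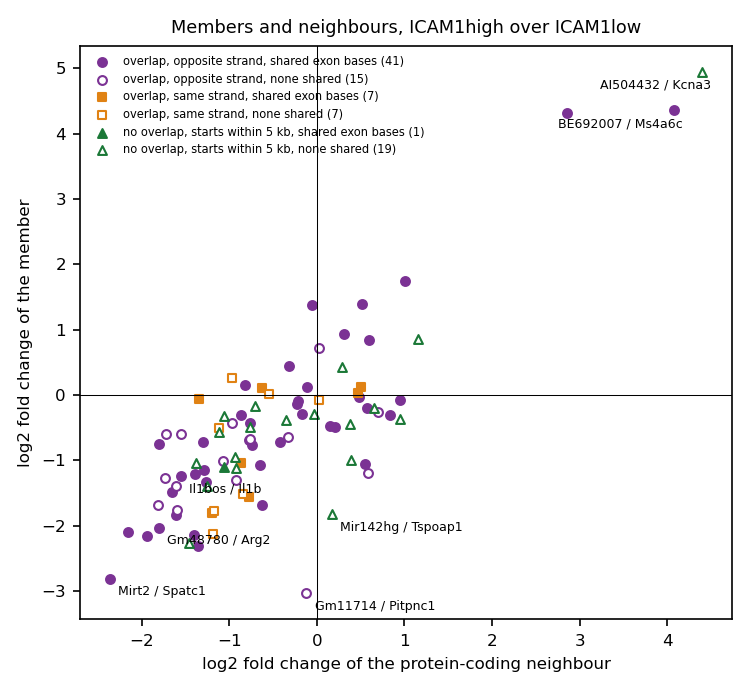
Log2 fold change of ICAM1high over ICAM1low for each member (vertical axis) and its protein-coding neighbour (horizontal axis) in the 90 measured pairs, by position and by whether exon bases are shared (filled) or not (open). Most pairs lie in the lower left and none of the 30 pairs with both called lies in an opposite quadrant; Gm11714 and Mir142hg are low beside neighbours near 0.

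In each fraction 1 library stood apart from the others. In ICAM1high replicate 1 and ICAM1low replicate 4 alike, 18 members (11.0%) were at least 2-fold below the mean of the other 3 libraries of their fraction, against 2.53% of all genes at the same count threshold. Without that limit, 23.2% of members had the lowest value of their fraction in both libraries, against 29.0% of those genes, and 30.5% had the highest, against 27.9%. Gm26809, of unknown role, had 103, 280, 361 and 405 CPM in ICAM1high libraries and 674, 281, 421 and 64 CPM in ICAM1low libraries. Gm17024, inside Ifrd1 on the same strand, had 2.59, 19.2, 22.3 and 18.7 CPM in ICAM1high libraries and 48.1, 19.2, 20.9 and 0.624 CPM in ICAM1low libraries. Gm12867, opposite the glucose transporter gene Slc2a1, had 0.0823, 4.22, 5.36 and 6.33 CPM in ICAM1high libraries and 20.9, 6.12, 11.3 and 0 CPM in ICAM1low libraries. Its fold change was -1.27 ± 1.11, and -0.56 without ICAM1low replicate 1. Gm17024 read -0.5 ± 0.87 and, without ICAM1low replicate 1, 0.2.

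Malat1, Xist, Gdap10, Gm12505, Gm14023, Gm16894 and A330023F24Rik were among the 18. Of the 18, 1 was called with all 8 libraries, Xist. In the other direction, 5 members, 1810058I24Rik, A530040E14Rik, AW112010, Gm13822 and Gm20186, were at least 2-fold higher in both libraries, 3.05% against 1.88% of the genes at the same count threshold. Mitochondrial genes took 0.874% of counts in ICAM1high replicate 1, against 0.612% to 0.652% in the other ICAM1high libraries, and 0.69% in ICAM1low replicate 4, against 0.341% to 0.466% in the other ICAM1low libraries. The part this has in the lncRNA values was not tested.

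**Figure D5:**
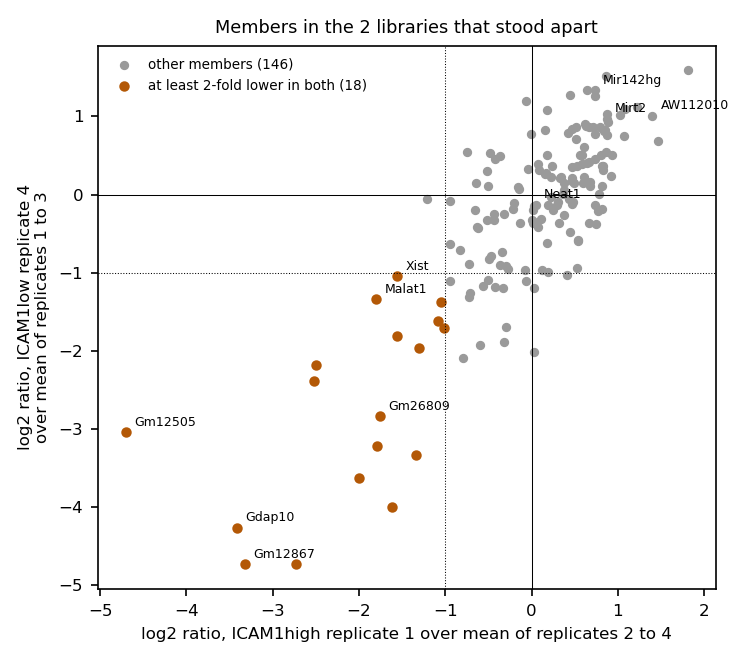
Log2 ratio of ICAM1high replicate 1 to the mean of ICAM1high replicates 2 to 4 (horizontal axis) and of ICAM1low replicate 4 to the mean of ICAM1low replicates 1 to 3 (vertical axis), after adding 0.5 CPM, for the 164 members. The 18 members at least 2-fold lower in both libraries are brown, and the dotted lines mark that limit; Malat1 and Xist are among them and Neat1 and Mirt2 are not.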

How the data were processed

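Sequencing of mRNA measured gene expression in 8 libraries of sorted neutrophils, each made from 100 ng of total RNA per the labels' protocols. The authors deposited 1 table of unnormalized read counts per gene with positions, biotypes and gene length in bases; that length, an other quantity, served only for levels per kb. The submitters' processing notes name HISAT2 and mm10; no source used here gives the counting tool, annotation, strand setting or filters. Positions are those of the table; 161 of 164 members had the same position and strand in GENCODE M21, an annotation of the same build.

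Counts were filtered with filterByExpr, scaled by TMM and fitted by fraction in R 4.3.3 with edgeR 4.0.16 (quasi-likelihood F test), unpaired, with Benjamini-Hochberg adjustment over all 14051 genes tested and a threshold of 0.05. Standard errors were derived from each log2 fold change and its F value. The scripts were tested on simulated data. Between replicates the counts gave chi-squares of 12.6 to 221 times their degrees of freedom, far above counting error, at depths of 10.3 to 22.8 M counts. These values pool genes of all levels, and abundant genes weigh most. They do not show how far depth limits members near 100 counts.

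Shares of counts were compared by exact permutation. A neighbour was the protein-coding gene that overlaps a member most or whose start is nearest within 5 kb. RefSeq entries were matched by symbol, synonym or gene identifier for 127 members, at an overlapping position and without regard to strand. Members, lists and tests were chosen with earlier results of these data known. Named members were those on role lists, the 10 highest per kb, the 10 largest rises and falls among called members whose average log2 CPM reached 2, the 3 smallest p-values per biotype and those at the threshold; hosts found by position and some neighbour pairs were added after values were seen. Alternatives were DESeq2 1.42.0, limma-voom (limma 3.58.1), RLE, upper-quartile and library-total scaling, other filters and member thresholds, and robust dispersion. Further ones were a replicate block, a covariate that set library numbers 898 and 899 apart from 001 and 002, subsets and libraries left out. No label states that this grouping of numbers is a batch.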

Additional observations from a re-analysis of the deposited data

Results flagged for a closer look

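Among 134 groups of 4 libraries, 10 had a library set apart from the other 3 of its fraction by Dixon's criterion; chance alone sets apart about 1 group in 20. In ICAM1high replicate 1 these were 1110038B12Rik at 21.9 CPM, Snhg5 at 14.5 CPM, 1810026B05Rik at 87.7 CPM and Mir142hg at 34.5 CPM, each the highest of its fraction. In ICAM1low replicate 4, Mir142hg at 157 CPM and Gm31814 at 20 CPM were the highest. In ICAM1low replicate 2, 1700020I14Rik at 37.7 CPM and Gm15832 at 415 CPM were the lowest of their fraction. In ICAM1low replicate 3, Ptgs2os2 at 47.1 CPM was the highest and AI504432 at 0.403 CPM the lowest. Without ICAM1high replicate 1 and ICAM1low replicate 4, Mir142hg had a log2 fold change of -1.61 ± 0.13 (SE, edgeR adjusted p = 9.8e-06).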

How the results depend on the processing

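The count of 93 called members ran from 75 to 95 when each library was left out in turn, the 21 higher members from 17 to 25 and the 72 lower members from 57 to 75. Library totals in place of TMM gave 39 higher and 35 lower members and 58 in place of 30 called genes on the protein lists. Over all 14051 genes tested they gave 6818 higher and 839 lower. A threshold of 50 counts for members gave 142 called of 307, 115 of them lower, and one of 200 counts gave 13 higher of 95. The share of neighbour pairs with the same sign, 75.6%, was 60.0% in replicates 3 and 4 alone and ran from 63.3% to 81.1% with 1 library left out; the restrictions to pairs without shared exon bases (75.6%) and to members that passed through both fractions (74.1%) were chosen after seeing the data. On the protein lists, 17 genes were called in replicates 3 and 4 alone, 12 in replicates 1 and 2 alone, and 23 to 34 with 1 library left out. On library totals 40 of the 164 members changed sign. Among named members called with TMM, 2810013P06Rik turned to 0.13, Dleu2 to 0.02 and Gas5 to 0.03. The whole scale shifted by 0.68. Among the 67 named members, with 1 library left out, 1700058P15Rik, 2810013P06Rik, Dleu2, E230013L22Rik, F630028O10Rik and Gm14005 lost their calls at least once, and 2410006H16Rik, A130014A01Rik, Gm14023 and Snhg8 gained one. In the fit with a replicate block, 78 members were called, 16 higher and 62 lower, with 20 genes on the protein lists and 10 on the role lists. Same-numbered libraries had correlations of -0.57, 0.21, 0.18 and -0.30 after removal of the fraction means. These values show no pairing, but they cannot settle whether same-numbered libraries came from the same tumours, which the labels do not state. DESeq2 changed the call of 3 and limma-voom of 2 of 67 named members. Pooled over genes, the spread between libraries was far above counting error. How far depth limits members near 100 counts was not tested.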

Other observations

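Among genes of RNA decay, outside the lncRNAs themselves, 6 of 17 measured members of the list of nuclear exosome subunits and adaptors (Dis3, Exosc2, Exosc8, Exosc9, Exosc10 and Mphosph6) were called higher in ICAM1high neutrophils and 4 (Exosc4, Pabpn1, Rbm7 and Zcchc8) lower. Of 17 nonsense-mediated decay factors, the machinery that also clears many spliced snoRNA hosts, Nbas and Smg9 were higher and Casc3 was lower. On library totals 13 exosome genes and 11 decay factors were higher and 0 lower in either list. Over all genes tested 22.6% were higher and 19.6% lower with TMM, and 6818 of 14051 were higher and 839 lower on library totals.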
